A study of Rattus norvegicus with 6 samples.

Results

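Anks6 lies on rat chromosome 5, and a missense mutation in it is the Cy allele of the Han:SPRD rat, in which polycystic kidney disease is inherited. The genes described here are its neighbours on that chromosome. They were chosen by position, as named genes with a probe lying wholly within chr5:53600000-73600000 of rat build rn3, which reaches about 10 Mb to each side of the Anks6 probe at chr5:63643642-63645033. The window held 302 probes other than controls, of which 163 could be named, for 131 genes. Anks6 and its partner Invs were set aside, as were 11 genes on the basis of their family or function (among them Igfbpl1, Nr4a3, Slc25a51, Ndufb6, Aqp3, Abca1 and Col15a1). This left 118 member genes with 143 probes, of 15540 named genes on the array, and 814 further named genes lay on chromosome 5 outside the window. In the current rat assembly GRCr8, 117 of the 118 are still placed on chromosome 5. The exception is Sec61g, on chromosome 14 there, which was too dim to be tested.

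Anks6 is a protein with ankyrin repeats and a SAM domain. It sits in the inversin compartment, a segment near the base of the primary cilium, together with Invs and Nek8, and loss of any of them leads to cystic kidneys. A mutation kept by breeding is passed on with the chromosome around it, so rats that differ in genotype at such a locus can also differ at linked genes, whatever the disease does. The question put to the data was whether genes linked to Anks6 lay farther from the wild-type reference in mutant kidney than other genes of the same chromosome.

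Left kidneys of Han:SPRD rats were taken at 3 and at 7 days of age, and RNA was pooled by genotype: wild-type (+/+), heterozygous (Cy/+, with 1 mutant copy of Anks6) and homozygous (Cy/Cy, with 2). Each of the 6 arrays carried 1 such pool in the red dye Cy5 and an age-matched +/+ pool in the green dye Cy3 as reference, so each genotype had 1 array at each age and dyes were not swapped. The number of animals behind each pool, and whether any pools came from the same animals, is not given in the sources used here. The p-values therefore measure only the spread between these arrays. Around the genotype means, that spread comes from differences between 3-day and 7-day arrays, not between replicates. It was pooled over Cy/+ and Cy/Cy and moderated across genes. A gene's SE is therefore the same for both genotype means and is not that genotype's own spread. A gene whose ratio changed with age in either genotype thus tends to have a wide interval in both. Values are log2 ratios of Cy5 over Cy3 after balancing of the dyes within each array, so 0 means equal brightness and -1 means a Cy5 signal at a 0.5-fold level of the reference. In whole-kidney RNA, fewer cells of a type and less RNA per cell cannot be told apart.

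Between 65.0% and 70.0% of the 43379 spots were well above background in Cy3, and between 66.8% and 74.8% in Cy5. All 8 kidney markers looked at (such as Lrp2, Umod and Aqp2) were well above background in Cy5 on the 4 mutant arrays, with median log2 ratios of -0.42 to 0.03. On the arrays labelled +/+ the same 8 markers had medians of -3.61 and -3.31, while markers of muscle had medians of 3.73 and 3.30 and markers of liver 6.02 and 6.07, so these pools went against their label and were left out of the tests. Among the mutant pools, both adipose markers (Adipoq and Fabp4) stood high in Cy/+ at 3 days, with a median log2 ratio of 2.51 against 0.15 to 0.89 on the other 3 arrays. The 2 liver markers had a median of 1.00 in Cy/Cy at 7 days, against -0.74 to 0.12 on the other 3 mutant arrays. The 2 erythroid markers had medians of -1.09 to -0.34 on the 4 mutant arrays. All 3-day arrays lay on 1 slide and all 7-day arrays on another, with each genotype at a fixed place, so age and slide, and genotype and place, cannot be told apart. Of the 118 members, 101 were well above background in either dye on at least 2 arrays and were tested among 12817 genes. The 17 that were not comprised 12 of the 13 olfactory receptor genes, Sec61g, Fam221b, Ccin, Tbc1d2 and Ppp3r2.

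Anks6 itself had log2 ratios of -0.04 and 0.16 in Cy/+ at 3 and 7 days and of 0.14 and 0.16 in Cy/Cy. Neither mean differed from the reference (limma, adjusted p = 0.654 and 0.611). A missense allele need not alter the amount of transcript, so this probe does not check the labels. Invs, which lies in the same window, had ratios of 0.00 and -0.02 in Cy/+ and of 0.03 and 0.19 in Cy/Cy. Nek8, Anks3 and Bicc1, partners on other chromosomes, did not pass the test in either genotype. The smallest adjusted p of these 3 in limma was 0.145, for Nek8 in Cy/+ (-0.31 ± 0.12 on the log2 scale, SE, n = 2 arrays).

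Sequences of a few probes, each a designed oligonucleotide of 60 bases, are given 5′ to 3′ from the scanner files with rn3 positions. The Foxe1 probe is shown because Foxe1 was the 1 member called in any comparison. The Il11ra1 and Ccl27 probes are shown because they lie next to each other on opposite strands and both gave low ratios in Cy/+, and the paired Smc2 and Coro2a probes because each pair measured 1 gene. Capitals mark the 27 bases that the Smc2 probes share, so those probes are not independent, while the Coro2a probes share no such stretch.
Foxe1, chr5:62908077-62908136, plus strand: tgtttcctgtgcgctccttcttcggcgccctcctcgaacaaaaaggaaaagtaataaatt
Il11ra1, chr5:59199654-59199713, plus strand: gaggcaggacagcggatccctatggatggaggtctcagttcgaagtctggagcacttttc
Ccl27, chr5:59199990-59200049, minus strand: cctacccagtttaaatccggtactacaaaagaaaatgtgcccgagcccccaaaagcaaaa
Smc2 first probe, chr5:69602434-69602493, plus strand: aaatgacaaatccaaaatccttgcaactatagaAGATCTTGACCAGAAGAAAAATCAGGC
Smc2 second probe, chr5:69602467-69606822, plus strand: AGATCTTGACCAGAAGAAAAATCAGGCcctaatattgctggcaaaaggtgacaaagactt
Coro2a first probe, chr5:63119738-63119796, minus strand: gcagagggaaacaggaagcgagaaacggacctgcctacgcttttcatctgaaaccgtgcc
Coro2a second probe, chr5:63124778-63125111, minus strand: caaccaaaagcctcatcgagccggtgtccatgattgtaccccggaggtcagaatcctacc

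By their median ratio, genes around Anks6 did not lie farther from the reference than other genes of chromosome 5 on any of the 4 mutant arrays. In Cy/+ at 3 days the median size of the log2 ratio, without regard to sign, was 0.143 for the 101 tested members, 0.146 for the 718 tested genes elsewhere on chromosome 5 and 0.161 for all genes. In Cy/+ at 7 days these medians were 0.124, 0.130 and 0.127. In Cy/Cy they were 0.0951, 0.102 and 0.101 at 3 days and 0.0672, 0.0893 and 0.0908 at 7 days. The members' median was thus the lower one against the rest of the chromosome on each array. These are descriptions without a test, since there is 1 array for each genotype and age and genes are not replicates. In Cy/+ the gap was small enough for its sign to turn with other ways of processing, to at most 0.0297 at 3 days and 0.0103 at 7 days, whereas in Cy/Cy it stayed below 0 at both ages in each of the 7 ways tried. With no filter on dim probes, all 118 members had a median of 0.133 in Cy/+ at 3 days against 0.133 elsewhere on chromosome 5, and of 0.0691 in Cy/Cy at 7 days against 0.0857.

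**Figure D1:**
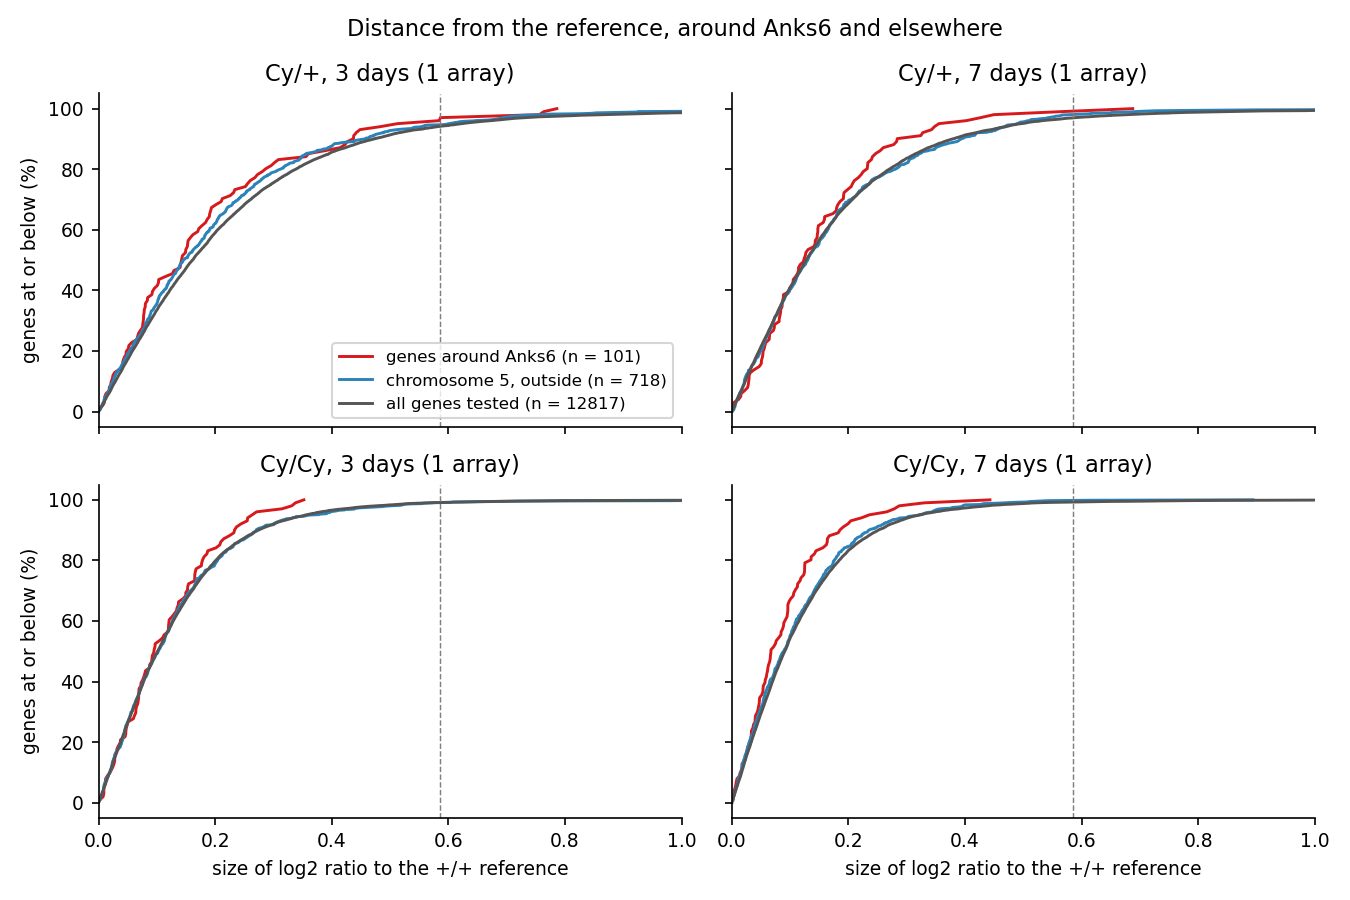
Share of genes (vertical axis, percent) whose log2 ratio to the +/+ reference is no larger in size than the value on the horizontal axis, for the 101 tested genes around Anks6, the 718 tested genes elsewhere on chromosome 5 and all 12817 genes, with 1 panel per mutant array and a dashed line at 1.5-fold. The curve of the genes around Anks6 runs close to the others, which continue past the end of the axis on some arrays, and reaches 100% at 0.79 in Cy/+ and 0.35 in Cy/Cy at 3 days, and at 0.69 and 0.44 at 7 days.

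The extremes gave the same picture. In Cy/+ at 3 days, 4 members (3.96%) were more than 1.5-fold from the reference, against 5.43% of the other genes of chromosome 5 and 5.82% of all genes. In Cy/+ at 7 days 1 member (0.99%) was, against 2.09% and 3.07%. In Cy/Cy no member was at either age, against 0.975% and 0.874% at 3 days and 0.279% and 0.733% at 7 days. The 4 members concerned were Coro2a (an actin-binding coronin), 1700009N14Rikl, Ccl21 (a chemokine that guides lymphocytes) and Foxe1, and the remaining 97 stayed within 1.5-fold on all 4 arrays. More than 1.25-fold from the reference in 1 direction at both ages was Foxe1 alone in Cy/+ (0.99% of the members, against 7.52% of the other genes of chromosome 5 and 7.56% of all genes). In Cy/Cy no member met that limit, against 0.557% and 1.16%.

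The members nearest to Anks6 did not have the larger ratios throughout. In Cy/+ at 3 days the median size was 0.149 for the 29 tested members within 2 Mb of Anks6, 0.149 for the 51 at 2 to 5 Mb and 0.077 for the 21 at 5 to 10 Mb. At 7 days the order was another, with 0.143, 0.099 and 0.174. In Cy/Cy the medians were 0.120, 0.0951 and 0.0874 at 3 days and 0.0919, 0.0600 and 0.0954 at 7 days. The nearest bin was highest in Cy/Cy at 3 days by less than 0.03, and no bin was highest on every array. From nearest to farthest the bins had a median log2 brightness of 8.54, 9.27 and 10.99, so their sizes are not strictly comparable. What brightness did to these sizes was not tested. By sign, the 21 members at 5 to 10 Mb were above 0 in 15 cases at either age in Cy/+ (medians 0.04 and 0.13). In Cy/Cy they were above 0 in 14 and 15 cases (medians 0.06 and 0.07). Of the 29 members within 2 Mb, 19 and 14 were above 0 in Cy/+ at 3 and 7 days, and 20 and 16 in Cy/Cy. Of the 51 at 2 to 5 Mb, these counts were 25 and 21, and 25 and 19. A leaning to 1 sign was thus not particular to the farthest bin. Of all 12817 genes, 6800 and 6817 were above 0 in Cy/+ at 3 and 7 days, and 6618 and 6914 in Cy/Cy. Of the 718 elsewhere on chromosome 5, these counts were 362 and 385, and 351 and 368.

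**Figure D2:**
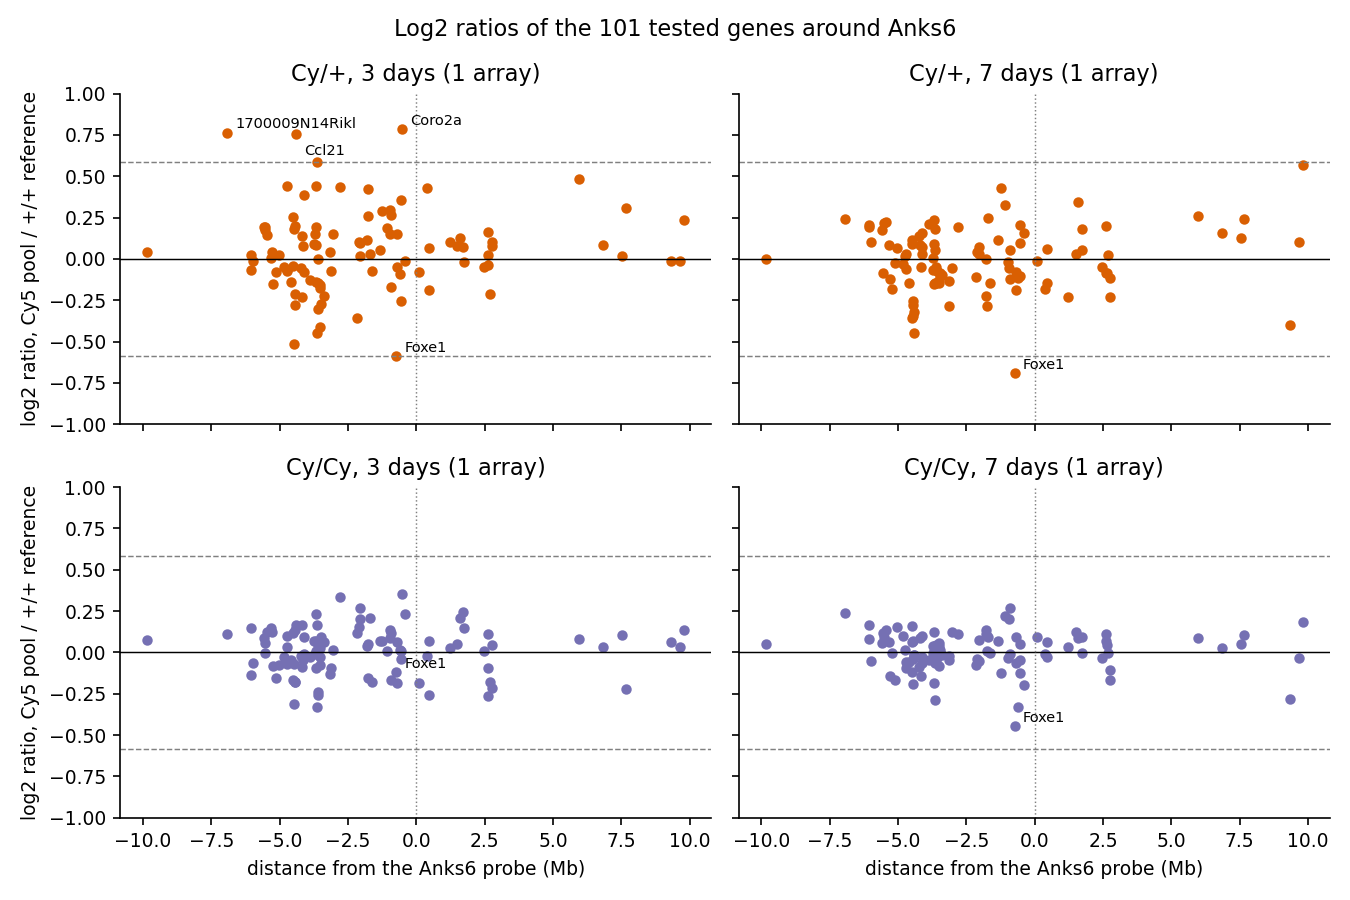
Log2 ratio of the Cy5 pool to the +/+ reference (vertical axis) against distance from the Anks6 probe in Mb (horizontal axis) for the 101 tested genes, 1 point per gene and 1 panel per mutant array, with dashed lines at 1.5-fold in either direction. The 4 genes past those lines on any array are named, Foxe1 is named on all arrays, and 78 genes lie left and 23 right of Anks6. Genes at 5 to 10 Mb lie above 0 more often than below it on each array. Those within 2 Mb do so on all but the 7-day Cy/+ array, and those at 2 to 5 Mb lie more often below 0.

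In Cy/+ kidney, Foxe1 was lower than in the reference and no other member passed the test. Foxe1, a forkhead transcription factor best known from thyroid and palate development, lies 0.736 Mb from the Anks6 probe. Its log2 ratio was -0.59 at 3 days and -0.69 at 7 days in Cy/+, and -0.12 and -0.44 in Cy/Cy. Both Cy/+ values thus lay below both Cy/Cy values, but the gene was singled out by its Cy/+ values. The Cy/+ mean was -0.64 ± 0.10 (SE, n = 2 arrays), or 0.643 times the reference, with a 95% interval of -0.87 to -0.40 (limma, adjusted p = 0.0273 over 12817 genes). The 1 call among 101 members (0.99%) compares with 7.28% of all genes and 6.41% of the other genes of chromosome 5. At an unadjusted p under 0.05 in limma there were 24 members (23.8%), against 26.9% of the other genes of chromosome 5 and 29.3% of all genes. Genes called lower were 2.82% of all genes, 362 of the 933 called, and 20 of the 46 called elsewhere on chromosome 5.

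The Foxe1 call was lost under several settings. Before the dyes were balanced, the probe was brighter in Cy5 than in Cy3 on all 4 mutant arrays, at 3410 against 3100 in Cy/+ at 3 days and 5990 against 4050 at 7 days, so its negative ratio exists only relative to the other spots. Without the 3-day Cy/+ array the adjusted p in limma was 0.113, and without the 7-day array it was 0.0726. Without the 3-day array no member passed, beside 0.679% of all genes. Without the 7-day array 2 others did, beside 5.38% of all genes, namely Ccl21 (0.76) and 1700009N14Rikl (0.76), both high on the 3-day array, where the adipose markers also stood high. Their part in these values was not tested. With the scanner software's own ratios the Foxe1 mean was -0.63 (limma, adjusted p = 0.121). With each array centred on its median in place of the dye curve, the median of all genes in Cy/+ moved to 0.30 and Foxe1 to -0.12 (limma, adjusted p = 0.402), which is 0.42 below that median. That centring called 52 members, 48 higher and 4 lower, beside 56.9% of all genes. Foxe1 was measured by 1 probe, so no second probe could be set beside it.

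The members next in order in Cy/+ fell short of the threshold. Smc2, a subunit of the condensin complex that compacts chromosomes, had log2 ratios of 0.48 and 0.26 at 3 and 7 days in Cy/+, and of 0.08 and 0.09 in Cy/Cy. Its Cy/+ mean was 0.37 ± 0.08 (SE, n = 2 arrays, limma, adjusted p = 0.0518). Its other probe, which overlaps the first in sequence, gave a Cy/+ mean of 0.28. Both probes were dim, with a mean log2 brightness of 6.96 and 6.90 against a median of 9.17 for the members. With the scanner software's ratios its mean was 0.84 (limma, adjusted p = 0.113). In limma it passed with no filter on dim probes (adjusted p = 0.0491), with every probe tested (0.0454), with median centring (0.0208, where it lay 0.05 above the median of all genes) and after subtraction of the array labelled +/+ (0.0121). Stra6l, a relative of the retinol-binding protein receptor, had Cy/+ ratios of 0.29 and 0.43 (limma, adjusted p = 0.0576) and Cy/Cy ratios of 0.07 and -0.13. Klf4, a zinc-finger transcription factor of differentiating epithelia, had Cy/+ ratios of 0.23 and 0.57 (limma, adjusted p = 0.0605) and Cy/Cy ratios of 0.14 and 0.19. For all 3 genes both Cy/+ values lay above both Cy/Cy values. They were singled out by their Cy/+ values, so this order is not a separate finding. Ratios of all genes were also larger in Cy/+, with median sizes of 0.161 and 0.127 against 0.101 and 0.0908 in Cy/Cy.

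1700009N14Rikl had ratios of 0.76 and 0.24 in Cy/+ and of 0.11 and 0.24 in Cy/Cy, so its height in Cy/+ rested on the 3-day array. Melk, a kinase of proliferating cells, had 0.44 and 0.19 in Cy/+ and 0.34 and 0.11 in Cy/Cy, higher at 3 than at 7 days in both genotypes. Coro2a had 0.79 and 0.10 in Cy/+ and 0.35 and -0.05 in Cy/Cy on its brighter probe, and a Cy/+ mean of 0.18 on the other against 0.44. None of the 3 passed in Cy/+ (limma, adjusted p = 0.0701, 0.0979 and 0.164).

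At the low end, Galt, the enzyme of galactose breakdown whose loss causes galactosaemia, had Cy/+ ratios of -0.51 and -0.26 and Cy/Cy ratios of -0.31 and -0.04. Il11ra1, the receptor for interleukin 11, had -0.21 and -0.35 in Cy/+ and -0.18 and -0.19 in Cy/Cy. Ccl27, a chemokine of skin, had -0.28 at both ages in Cy/+ and -0.18 and 0.07 in Cy/Cy. Tln1, or talin, which links integrins to actin, had -0.45 and -0.15 in Cy/+ and -0.33 and -0.29 in Cy/Cy. All 4 were below the reference at both ages in Cy/+, and none passed (limma, adjusted p = 0.0763, 0.0718, 0.0963 and 0.0998). Centring each array on its median turned the Cy/+ means of Galt, Il11ra1 and Tln1 to 0.16, 0.30 and 0.13, against a median of 0.30 for all genes.

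**Figure D3:**
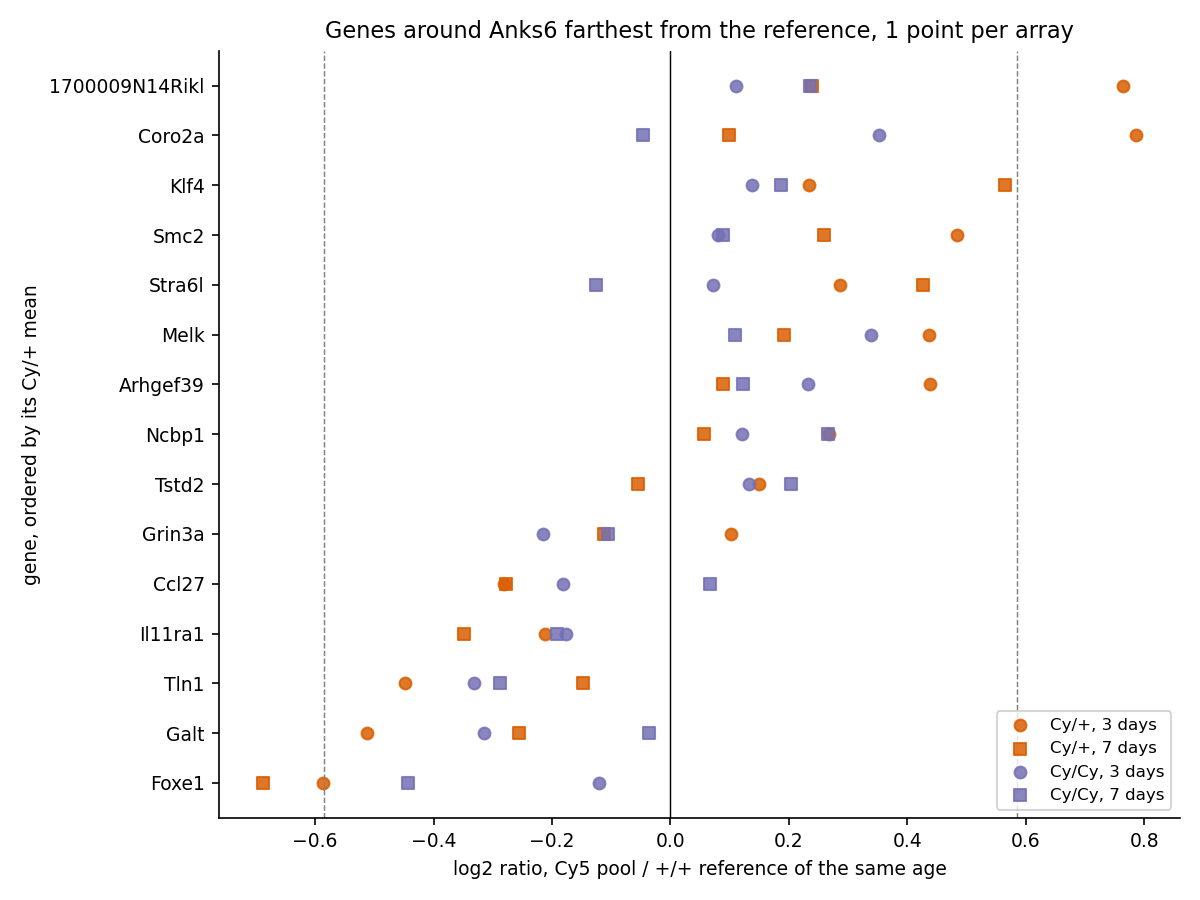
Log2 ratio to the +/+ reference of the same age (horizontal axis) for the 15 genes around Anks6 that were farthest from it by mean ratio, ordered by their Cy/+ mean, with 1 point per array, dashed lines at 1.5-fold, circles for 3 days and squares for 7 days. Foxe1 is the gene past 1.25-fold at both ages in Cy/+ (-0.59 and -0.69), while Coro2a and 1700009N14Rikl are far to the right at 3 days only.

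In Cy/Cy kidney no member passed the test. The same was true of all 12817 genes (0% called), so the fit had no call in which members could have shared. At an unadjusted p under 0.05, limma gave 3 members (2.97%), against 7.38% of the other genes of chromosome 5 and 9.23% of all genes. They included Tln1 (-0.31 ± 0.09, SE, n = 2 arrays), with the smallest adjusted p of the members, 0.463 in limma, and Il11ra1 (-0.18 ± 0.07). Foxe1 was the third, at -0.28 ± 0.10 (limma, adjusted p = 0.488). Highest in Cy/Cy among genes of 1 sign at both ages were Melk (mean 0.22), Ncbp1 of the nuclear cap-binding complex (0.19), Arhgef39 (0.18), 1700009N14Rikl (0.17) and Tstd2 (0.17). Lowest were Tln1, Foxe1, Il11ra1, Galt (-0.18) and Grin3a, a subunit of glutamate receptors (-0.16). The median 95% interval of a member reached 0.202 to each side on the log2 scale, or 1.15-fold. It has the same width in Cy/+ because the fit pools the spread of both genotypes. Between ages, the members' log2 ratios differed by a median of 0.151 in Cy/+ and 0.0883 in Cy/Cy. Cy/+ and Cy/Cy were set against the same kind of +/+ reference, so their values are given side by side and are not 2 independent views of a gene.

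A gene whose level follows the mutant chromosome would be expected to move with the number of copies, which was asked in 2 further ways. Between Cy/Cy and Cy/+ no member differed (0% of all genes were called), and limma gave 3 members (2.97%) at an unadjusted p under 0.05 against 5.79% of all genes, with a smallest adjusted p of 0.82. The difference for Foxe1 was 0.36 ± 0.14 (SE), higher in Cy/Cy, with an interval of 0.02 to 0.69 (limma, adjusted p = 0.847). For Smc2 it was -0.29 ± 0.12 (limma, adjusted p = 0.847). Both genes were singled out by their Cy/+ values. The median interval of a member reached 0.285 to each side, or 1.22-fold. As a slope per Cy allele, again no member and no other gene passed (0%), and limma gave 6 members (5.94%) at an unadjusted p under 0.05 against 13.4% of the other genes of chromosome 5 and 14.2% of all genes. The Foxe1 slope was -0.24 ± 0.09 per allele and that of Tln1 -0.18 ± 0.05 (limma, adjusted p = 0.347 for both).

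The 5 tested members nearest to Anks6 on each side were all uncalled, beside 7.28% of all genes called in Cy/+ and 0% in Cy/Cy. For so few genes, no call is near those shares. To the left, Anp32b (a histone chaperone) had Cy/+ ratios of -0.09 and -0.11, and Cy/Cy ratios of 0.02 and -0.33. Nans, which makes sialic acid, had 0.36 and 0.21 in Cy/+ and 0.01 and 0.05 in Cy/Cy (limma, adjusted p = 0.0755 in Cy/+). Trim14, a component of antiviral signalling, had -0.25 and -0.10 in Cy/+ and -0.04 and -0.13 in Cy/Cy. Coro2a is given above, and Gabbr2, a subunit of the GABA-B receptor, had -0.01 and 0.16 in Cy/+ and 0.23 and -0.20 in Cy/Cy.

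To the right, Galnt12, which starts mucin-type glycosylation and lies only 0.091 Mb away, had -0.08 and -0.01 in Cy/+ and -0.19 and 0.09 in Cy/Cy. Its probe was well above background on 2 of the 6 arrays only. Tgfbr1, the type I receptor for TGF-beta, had 0.43 and -0.19 in Cy/+ and -0.02 and -0.01 in Cy/Cy, and its 3 probes gave Cy/+ means of 0.12 to 0.16. Alg2 (a mannosyltransferase of N-glycan assembly), Sec61b (a subunit of the channel into the endoplasmic reticulum) and Stx17 (a fusion protein of autophagosomes) ranged from -0.23 to 0.10 in Cy/+ and from -0.26 to 0.07 in Cy/Cy. In at least 1 genotype, 8 of these 10 genes had opposite signs at the 2 ages, the exceptions being Nans and Trim14.

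Grouped by function, the tested members had group medians from -0.19 (blood and immune genes in Cy/+ at 7 days) to 0.28 (cytoskeleton and junctions in Cy/+ at 3 days). Calls in these groups stand beside 7.28% of all genes called in Cy/+ and 0% in Cy/Cy. In groups this small, no call or a single one is not a result about the group. Of 6 transcription factors, all tested, 1 was called in Cy/+ (Foxe1, lower) and none in Cy/Cy. Apart from Foxe1 and Klf4, they included Zfp462, for which 3 probes disagreed, with Cy/+ means of 0.18, -0.21 and 0.02. Of the 10 genes for receptors and signalling none was called, and their medians lay between -0.06 and 0.03 on the 4 arrays. The lowest of them in Cy/+ at 3 days was Npr2, a receptor for natriuretic peptide C, at -0.41, and its value at 7 days was -0.13.

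None of the 10 tested genes of glycosylation and the secretory pathway was called, with medians from -0.02 to 0.04. B4galt1, a galactosyltransferase, was above 0 on all 4 arrays, at 0.14 and 0.23 in Cy/+ and 0.12 and 0.14 in Cy/Cy. None of the 13 genes of genome upkeep, RNA handling and ribosome biogenesis was called, with medians from 0.03 to 0.08. Smc2, Melk and Ncbp1 belong here, as does Exosc3, a subunit of the RNA exosome, whose Cy/+ ratios were 0.42 at 3 days and -0.28 at 7 days.

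The 6 genes of cytoskeleton and junctions had the highest group median, 0.28 in Cy/+ at 3 days, against 0.02 at 7 days, 0.10 in Cy/Cy at 3 days and -0.03 at 7 days, and none was called. Tpm2, a tropomyosin of muscle cells, had 0.58 and 0.05 in Cy/+ and 0.17 and -0.02 in Cy/Cy, and its 3 probes gave Cy/+ means of 0.32, 0.41 and 0.47. On the 3-day Cy/+ array the muscle markers had a median of 0.30, with Myh4 not well above background, and the adipose markers one of 2.51. What these have to do with the Tpm2 and Coro2a ratios was not tested.

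Of the 6 blood and immune genes none was called, and their medians were 0.02 and -0.19 in Cy/+ at 3 and 7 days and 0.04 and -0.02 in Cy/Cy. Ccl21 differed most between ages, at 0.76 and -0.45 in Cy/+, and Ccl19, the other ligand of the receptor Ccr7, had 0.20 and -0.32. Both thus lay above the reference at 3 days and below it at 7 days in Cy/+, while in Cy/Cy they had 0.17 and -0.02, and 0.14 and -0.01. Hemgn, a nuclear protein of blood precursors, had -0.05 and -0.08 in Cy/+, although the erythroid markers had medians of -1.09 and -0.78 on those arrays. The 5 metabolic enzymes and the 7 tested genes of protein quality control and traffic had no call either. Of them Gba2, a glucosylceramidase, was lowest at -0.30 and -0.15 in Cy/+, and Stoml2, a mitochondrial membrane protein, highest at 0.39 and 0.16 (limma, adjusted p = 0.0949).

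**Figure D4:**
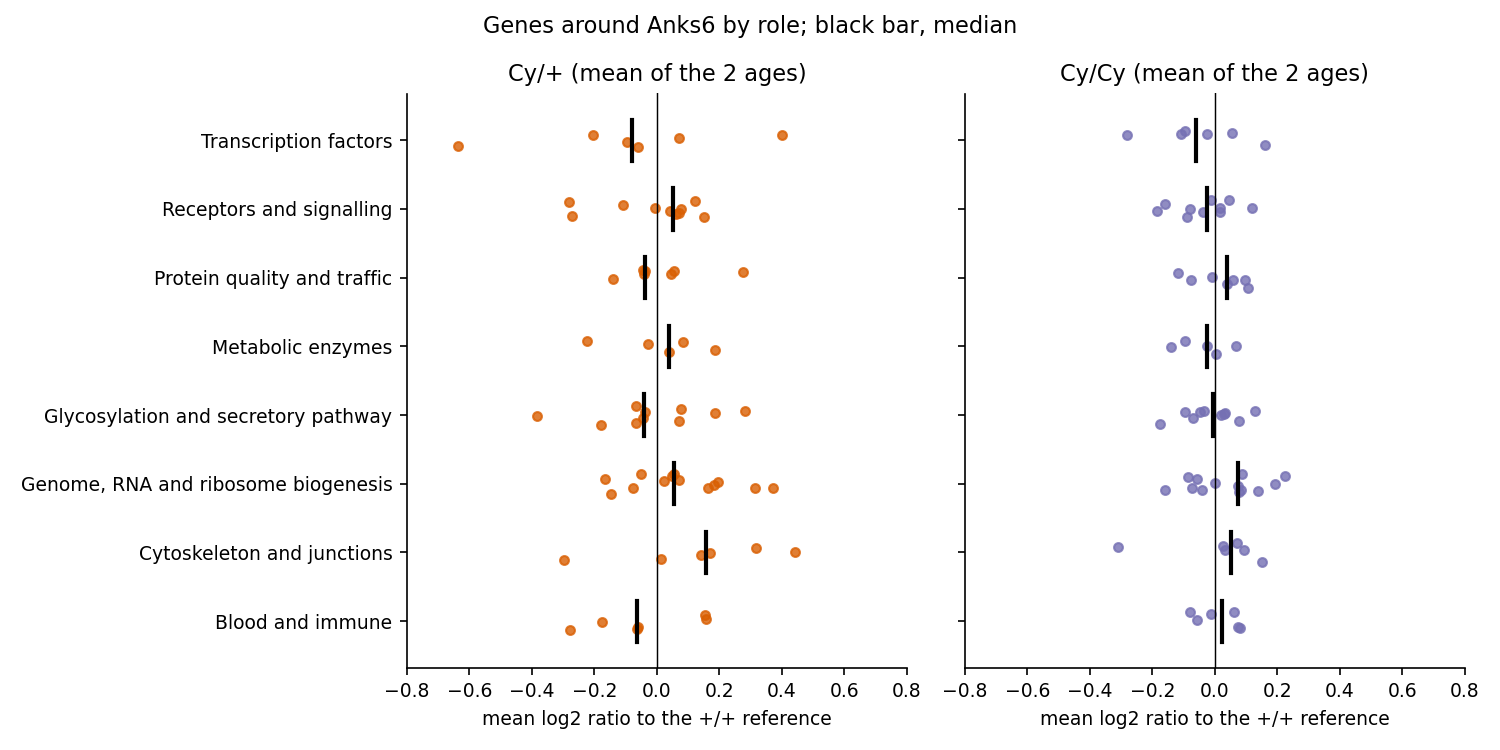
Mean log2 ratio over both ages (horizontal axis, 2 arrays per genotype) of the tested genes around Anks6, grouped by function, with 1 point per gene and a black bar at each group's median, Cy/+ on the left and Cy/Cy on the right. Foxe1 at -0.64 is the lowest point in Cy/+, and the group medians lie near 0 except for cytoskeleton and junctions in Cy/+.

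Neighbouring members resembled each other weakly. Across the 100 pairs of tested members next to each other, the correlation of their ratios was 0.26 in Cy/+ at 7 days, 0.17 in Cy/Cy at 3 days, 0.01 in Cy/Cy at 7 days and -0.02 in Cy/+ at 3 days. For the 717 pairs elsewhere on chromosome 5 it lay between 0.02 and 0.07. These correlations are descriptions, since all genes come from the same arrays and each gene enters 2 pairs. The longest stretch of neighbours with 1 sign at both ages in Cy/+ had 5 genes over 139 kb (Npr2, Spag8, Hint2, Tmem8b and Or13c7e), all below the reference, with medians of -0.23 at 3 days and -0.10 at 7 days. No stretch of 4 or more was found in Cy/Cy. None of those 5 genes was called, beside 7.28% of all genes in Cy/+, and Or13c7e was the 1 olfactory receptor gene that could be tested. Spag8 and Or13c7e were dim, with a mean log2 brightness of 6.57 and 6.41. In Cy/+, 67.3% of the members had 1 sign at both ages, against 68.7% of the other genes of chromosome 5. Stretches among those other genes were not counted.

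The adjacent Il11ra1 and Ccl27 probes were picked because both were low in Cy/+, so their likeness there is not a finding. In Cy/Cy Il11ra1 had -0.18 and -0.19 at 3 and 7 days, and Ccl27 -0.18 and 0.07. On the arrays labelled +/+ Il11ra1 had 0.06 and 0.58 and Ccl27 1.93 and 0.78. At the borders of the window, Lingo2 just inside the low end ranged from 0.00 to 0.08 on the 4 mutant arrays and RGD1359108 just outside it from -0.33 to 0.03. Klf4 just inside the high end ranged from 0.14 to 0.57 and Ctnnal1 outside it from -0.24 to -0.02. Of the 20 members with several probes, Tmod1, Ubap1, Ubap2 and Fbxo10 had Cy/+ means of opposite sign on different probes, as had Zfp462, and for Fbxo10 they were 0.084 and -0.003. The members' probes were like those of other genes, with a median GC content of 45.0% in each set and a median log2 brightness of 9.17 against 9.25 elsewhere on chromosome 5 and 9.33 overall.

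The arrays labelled +/+ held far larger ratios. On them 31 members (30.7%) at 3 days and 28 (27.7%) at 7 days were more than 1.5-fold from the reference, against 38.1% and 32.6% of all genes. Highest by the mean of the 2 ages were Baat, the liver enzyme that couples bile acids to amino acids, at 5.38 and 4.15, and Tmod1, a cap of actin filaments in muscle and red cells, at 3.74 and 4.32. Gabbr2 had 4.52 and 2.26, Coro2a 4.03 and 3.06, Hemgn 3.41 and 2.77, and Klf4 3.07 and 3.37. Foxe1 had 0.48 and 0.62 on these arrays, opposite in sign to its values in the mutant pools. Of the members more than 1.5-fold above the reference in Cy/+ at 3 days, Coro2a and Ccl21 were also among the highest here. The other, 1700009N14Rikl, was not, at 0.30 and -0.27.

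**Figure D5:**
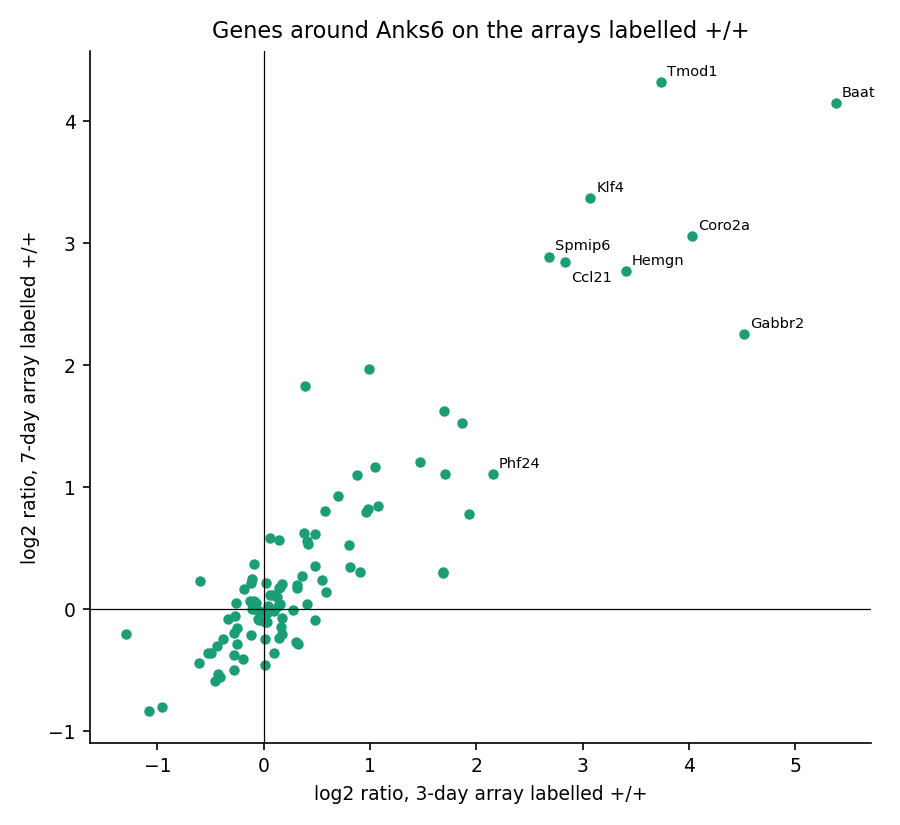
Log2 ratios of the 101 tested genes around Anks6 on the arrays labelled +/+, at 3 days (horizontal axis) and at 7 days (vertical axis), 1 point per gene, with genes above 2 at either age named. Baat, Tmod1, Coro2a, Klf4, Hemgn, Ccl21, Spmip6 and Gabbr2 stand above 2 at both ages, and most other genes lie near 0.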

How the data were processed

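Spot signals and local backgrounds are intensity values without normalization, and the deposited ratios are log10 values of dye-normalized Cy5 over Cy3, both per the file headers (Agilent Feature Extraction 9.5.1.1, build rn3). The authors' series table held the same log10 ratios (largest difference 0). The series text names an older software version and another array product, and the headers were followed.

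Here, with R 4.3.3 and limma 3.58.1, mean signals were background-corrected by normexp (offset 50) and normalized within arrays by loess, with control spots and spots marked as outliers (125 to 192 per array) at weight 0. Spots of a probe were averaged, and 30934 probes were kept because 1 dye or both exceeded background clearly on 2 or more arrays. Names came from a RefSeq table of assembly GRCr8 (member probes: 73 by their own accession, 1 by another, 44 by symbol and 25 by synonym). The brightest kept probe stood for a gene, and for genes of the window only probes in it counted. Log2 ratios of the 4 mutant arrays were fitted with lmFit and eBayes, 1 mean per genotype (2 residual degrees of freedom, prior 3.94) or a slope per Cy allele without intercept (3, prior 3.29), with Benjamini-Hochberg adjustment over 12817 genes at 0.05. Testing a ratio against 0 leaves out the reference pool's own spread. The fit was tested on simulated data.

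The members, function groups and tests were chosen with earlier results of these data known. Genes were named by rule: those called, the 8 farthest from 0 with 1 sign on all 4 arrays, the 5 highest and 5 lowest per genotype with 1 sign at both ages, the 5 nearest on each side, and up to 4 per function group. Spmip6, Hemgn, Tmod1 and others named for the +/+ arrays, neighbours, probes or borders were picked after their values were seen. Alternatives covered normalization, filter, probe choice, window, membership, left-out arrays, the arrays labelled +/+ as baseline, and age as a block.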

Additional observations from a re-analysis of the deposited data

How the results depend on the processing

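The number of members called in Cy/+ was 1, and it was 1 again with the mean of a gene's probes and with a window of 5 Mb to each side. It was 0 with the scanner software's log ratios (0% of all genes called), 52 with median centring (56.9%), and 2 with no filter on dim probes (Foxe1 and Smc2, beside 6.48%). It was 2 with the 11 set-aside genes included (Foxe1 and Igfbpl1, beside 7.28%) and 10 of 241 with every probe of the window, named or not (8 higher and 2 lower, against 8.13% of all probes). It was 36 after subtraction of the array labelled +/+ (37.7%), and ranged from 0 to 2 when a Cy/+ array was left out (beside 0.679% and 5.38%), where the lone remaining array is assumed to vary like the others. In Cy/Cy it was 40 with median centring (49.6%) and 34 after subtraction of the array labelled +/+ (36.5%). It was 0 with changes of ratio, filter, probe, window and membership, beside at most 0.00666% of all genes or probes. For Cy/Cy against Cy/+ it was 0 with changes of ratio, centring, filter, probe, window and membership, and with age as a replicate block. Beside it, 0.0546% of all genes were called with median centring and 0% in the others of these settings. For the slope it was 40 with median centring (48.3%) and 0 in the others of these settings (0%). At such low shares, 0 among the members is not a result about them. Leave-outs are not counted for Cy/Cy, the difference or the slope, since they leave 1 array in a genotype. Subtraction of the array labelled +/+ was run for Cy/+ and Cy/Cy only. Ages share a number only through the slide, and the block changed no call.

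The median size of members minus that of the other genes of chromosome 5 was -0.0029 in Cy/+ at 3 days. It became -0.00548 with the software's ratios, 0.0297 with median centring, -0.00019 with no filter, 0.0123 with the mean of probes, 0.0034 with the 5 Mb window, 0.000819 with the set-aside genes and 0.000883 with every probe. In Cy/+ at 7 days it was -0.00622, and became -0.0308 with median centring, 0.0103 with the mean of probes, -0.0158 with the 5 Mb window, -0.00142 with the set-aside genes and -0.00154 with every probe. In Cy/Cy at 7 days it was -0.0221, and became -0.0404 with median centring and -0.0036 with every probe. In Cy/Cy at 3 days it was -0.00715 and moved by less than the SD between ages in each setting. Among the 8 members followed through the settings, Cy/+ means that changed sign were Galt (0.16), Il11ra1 (0.30) and Tln1 (0.13) with median centring, and Galt (0.50), Klf4 (-2.82) and Tln1 (0.45) after subtraction of the array labelled +/+. Apart from the shift of all genes by median centring (0.30 in Cy/+ and 0.25 in Cy/Cy), causes were not tested. With 2 arrays per genotype, the number of arrays limits the precision, and single dim probes such as Galnt12 say little.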
